A study of Rattus norvegicus with 14 samples.

Results

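The regions described here are distal, CpG-sparse stretches of the rat genome that were highly methylated in unoperated oesophagus. The genome was cut into tiles of 1000 bp from position 1 of chromosomes 1 to 20. A cytosine counted as listed if any of the 13 deposited libraries reported it. A member had 1 to 19 listed cytosines and no tile with 60 or more listed cytosines within 5 tiles on either side. It also had at least 3 cytosines that were each present in 3 or more libraries of every group. Members were selected on the methylation of replicates 1 and 2 of the unoperated controls, pooled over the cytosines used, which had to reach 70%. In all 17504 tiles met the rule, which was 26.9% of the 65034 tiles that could be tested and 69.3% of the 25268 distal CpG-sparse tiles. Since replicates 1 and 2 chose the members, their values are a description only, and replicates 3 and 4 served as the controls of every comparison.

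The libraries were made by reduced representation bisulfite sequencing, in which genomic DNA is cut with MspI at CCGG sites and unmethylated cytosines are converted before sequencing. The rats were males of 8 to 9 weeks, and in the operated groups a gap made in the oesophagus had been closed with a cell-free scaffold of bi-layer silk fibroin (BLSF). The day 1 group (5 libraries) was host tissue no more than 2 mm from the defect, taken 1 day after repair. The week 1 group (4 libraries analysed of 5 labelled) was neotissue from the graft area at 1 week. The non-surgical controls (NSC, 4 libraries) were full-thickness oesophagus of rats that had no operation. Time after surgery and kind of tissue changed together between the groups and cannot be told apart. Whether each library is a different animal is not stated, and p-values here reflect variation among libraries, part of which may be technical.

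Most CpG sites of a mammalian genome lie outside CpG islands and carry methyl groups on both strands. DNMT3A and DNMT3B place these marks, DNMT1 with UHRF1 copies them after replication, and TET enzymes oxidise them on the way to removal. Methylated cytosine mutates readily to thymine, and DNA that has been methylated in the germ line is therefore poor in CpG. Local loss of methylation in such DNA is a known property of enhancers bound by transcription factors, and it differs between cell types. The rat oesophagus has a keratinised squamous epithelium over connective tissue and striated muscle. A tile's percent in these bulk libraries is an average over all cells, so that a change of methylation within a cell type and a change in the proportions of cell types cannot be told apart. Annotation of the genome build of the files (mRatBN7.2) was not used here, so tiles are named by position and assigned to no gene, and markers of cell types were not examined.

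The files listed between 1432898 and 4181382 cytosines per library, each with at least 5 reads. Reads summed over them ran from 9676493 in day 1 replicate 2 to 49782600 in NSC replicate 1. Day 1 replicate 2 stood apart in depth: it had reads in 28.4% of the member tiles, and the 12 other libraries in 89.9% to 99.4%. It also had the highest methylation of mitochondrial cytosines (1.91%, with 0.673% in day 1 replicate 1 and 0.173% to 0.319% elsewhere). Results that rest on day 1 replicates 1 and 2 are therefore also given without them where the call or the size changed.

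The members were small and scattered. They had 3 to 19 listed cytosines with a median of 13. A median of 4 cytosines per tile, at a median of 3 CpG sites, entered the measurements, 71213 cytosines in all, and they spanned a median of 128 bp of the tile. The term CpG-sparse refers to cytosines that were read, since only MspI fragments up to 300 bp were sequenced. The nearest CpG-dense tile, with 60 or more listed cytosines, was 6 to 5251 tiles away with a median of 98, and 8685 members (49.6%) were 100 or more tiles from one. Only 989 members (5.65%) adjoined another member, and the longest run was 3 tiles. Their share of the tiles tested ran from 22.1% on chromosome 12 to 32.1% on chromosome 15.

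The high level that chose the members was also measured in the control libraries that did not choose them. The median member had 87.4% methylation in NSC replicates 3 and 4 pooled, where 6891 members (39.4%) reached 90% or more, 1357 (7.75%) were below 70% and 85 (0.486%) were below 50%. Tiles on either side of the threshold were alike in these libraries. The 365 members at 70% to 71% in NSC replicates 1 and 2 had medians of 83.2% at day 1, 78.7% at week 1 and 72.8% in NSC replicates 3 and 4. The 332 distal sparse tiles just outside, at 69% to 70%, had medians of 83.4%, 79.7% and 70.7% in the same 3 sets of libraries.

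Single cytosines within a member were not all methylated. Among 65153 member cytosines with at least 20 reads in NSC replicates 1 and 2, 57058 (87.6%) were at 70% or more there, 7685 (11.8%) were at 30% to under 70%, and 410 (0.629%), in 392 tiles, were under 30%. The cytosines of the intermediate class had a median of 81.3% at day 1, 76.9% at week 1 and 67.4% in NSC replicates 3 and 4. The class at 70% or more had medians of 94.3%, 92.7% and 92.1%, and the class under 30% had medians of 26.1%, 28.4% and 20.8%, in the same order of groups. Where both strands of a CpG site had at least 20 reads pooled over a group, the percent on the strands differed by a few points. The median was 4.71 points at day 1 (3721 sites), 6.18 points at week 1 (3516 sites) and 6.91 points in NSC replicates 3 and 4 (2412 sites). The groups pooled 5, 4 and 2 libraries, so depth and sites differed and these medians are not compared between groups.

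Mean methylation of the members was higher in the day 1 wound margin than in unoperated tissue, and the week 1 graft tissue lay between. The mean was taken over the 4306 members that had reads in every library. It was 88.9%, 87.1%, 88.0%, 88.9% and 87.7% in the 5 day 1 libraries, 86.4%, 86.5%, 84.4% and 86.8% in the 4 week 1 libraries, and 84.6% and 84.7% in NSC replicates 3 and 4. Every day 1 library was above every NSC and every week 1 library, and week 1 replicate 3 was below the controls while the other week 1 libraries were above them. NSC replicates 1 and 2, which chose the tiles, had 85.0% and 85.4%.

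The members averaged 88.1% ± 0.793 at day 1 (SD, n = 5) and 84.7% ± 0.0889 in NSC (SD, n = 2), a difference of 3.45 points. The exact two-sided permutation test gave p = 0.0952, the smallest value that 5 libraries against 2 allow, and 0.154 after Benjamini-Hochberg adjustment over the 15 means compared. In the 4306 members day 1 replicate 2 had a median of only 13 reads per tile. Without it, over 12555 members, the difference was 3.94 points.

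Week 1 averaged 86.0% ± 1.11 (SD, n = 4) and NSC 84.7% ± 0.0889 (SD, n = 2), a difference of 1.34 points (exact permutation p = 0.4, adjusted 0.429; the smallest possible p is 0.133). The week 1 libraries, at 84.4% to 86.8%, lay on both sides of the controls. It was 1.89 points without week 1 replicate 3. Among members at 80% or more in the choosing libraries it was 0.487 points.

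Week 1 was lower than day 1, with means of 86.0% ± 1.11 (SD, n = 4) and 88.1% ± 0.793 (SD, n = 5). No NSC library enters this comparison. The difference of -2.11 points had an exact two-sided permutation p of 0.0159, the smallest that 4 against 5 allow, and 0.119 after adjustment over the 15 means. With reads pooled over all members it was -1.63 points with an exact p of 0.143. Without day 1 replicates 1 and 2 it was -2.10 points with an exact p of 0.0571, and without week 1 replicate 3 it was -1.55 points.

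**Figure D1:**
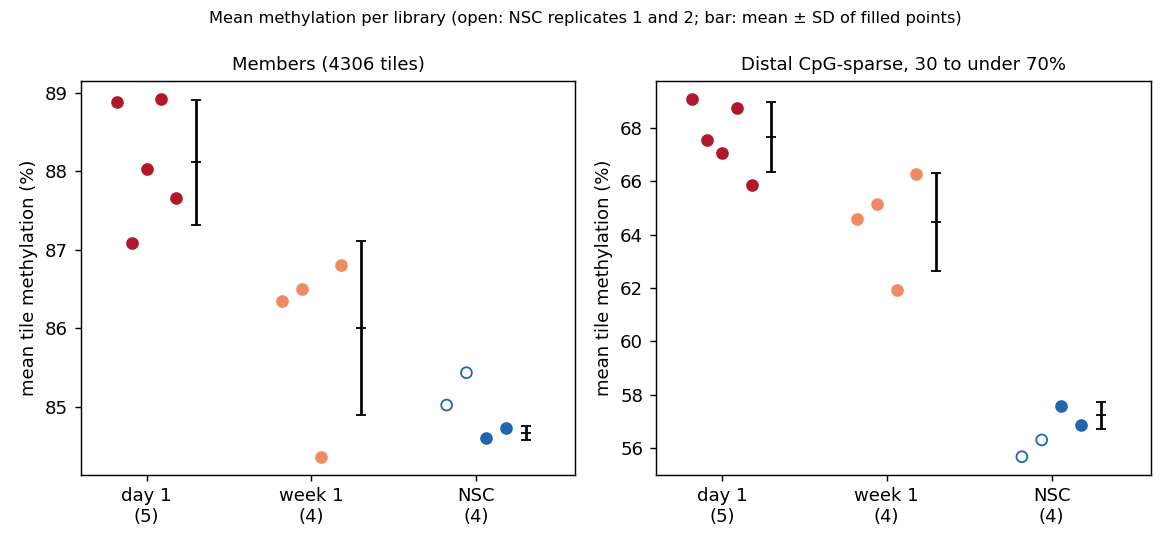
Mean methylation (percent, vertical axis, not starting at 0) of each library in the day 1, week 1 and NSC groups, for the members (left) and for distal CpG-sparse tiles at 30% to under 70% in NSC replicates 1 and 2 (right). Filled points enter the comparisons, open points are NSC replicates 1 and 2, and bars are mean ± SD of the filled points; all 5 day 1 libraries, 87.1% to 88.9% in the members, lie above the NSC libraries.

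The differences were spread over the whole genome. Day 1 exceeded NSC on 20 of 20 chromosomes, by 1.71 points on chromosome 17 to 5.36 points on chromosome 4. Week 1 exceeded NSC on 20 of 20, by 0.23 points on chromosome 6 to 2.52 points on chromosome 4. Week 1 was below day 1 on 20 of 20, with differences of -0.425 points on chromosome 17 to -2.83 points on chromosome 4. The chromosomes share the libraries and are not replicates, so that these counts carry no test.

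Within the members the difference was larger where the starting level was lower, and varied little with density or distance. Members at 70% to 80% in NSC replicates 1 and 2 (4254 tiles) averaged 81.7% ± 1.03 at day 1, 79.2% ± 1.60 at week 1 and 75.6% ± 0.356 in NSC replicates 3 and 4 (SD over libraries, n = 5, 4 and 2). Members at 80% to 90% (6595 tiles) averaged 88.4% ± 0.902, 86.0% ± 1.19 and 84.8% ± 0.134 in the same groups. Members at 90% to 100% (6655 tiles) averaged 93.2% ± 0.575, 91.9% ± 0.618 and 92.3% ± 0.143. Day 1 minus NSC was thus 6.13, 3.64 and 0.901 points in the 3 bands, and week 1 minus NSC was 3.60, 1.21 and -0.431 points. A tile near full methylation has little room above it, and this was not corrected for. Bands of listed cytosines gave day 1 minus NSC of 3.53, 3.46 and 3.37 points, and bands of distance from a dense tile 3.56, 3.21 and 3.56 points. Whether the differences varied between these bands was not tested.

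**Figure D2:**
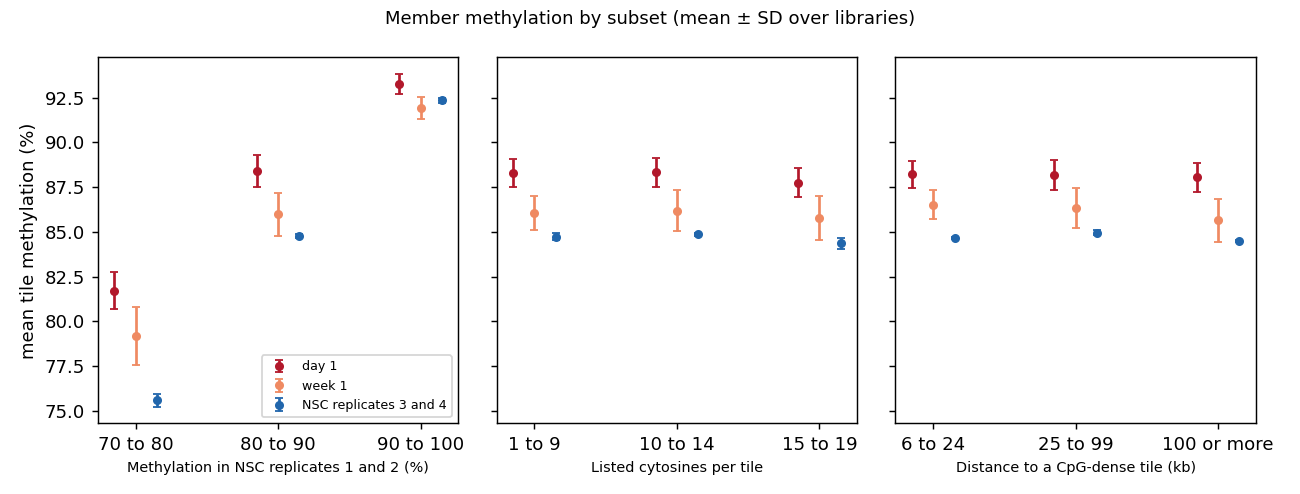
Mean methylation of the members (percent, vertical axis, not starting at 0) at day 1, week 1 and in NSC replicates 3 and 4, as mean ± SD over libraries, in bands of methylation in NSC replicates 1 and 2 (left), listed cytosines (middle) and distance to a CpG-dense tile in kb (right). The groups lie 6.13 and 3.60 points above NSC in the lowest methylation band and 0.901 and -0.431 points from it in the highest, while the other bands differ little.

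Less methylated distal sparse tiles differed by more than the 3.45 points of the members. The members have less room to gain, which was not corrected for. The class under 30% averaged 26.3% ± 1.65 at day 1 and 16.6% ± 0.0227 in NSC, a difference of 9.77 points (SD, n = 5 and 2, 356 tiles, exact permutation p = 0.0952). The class at 30% to under 70% averaged 67.7% ± 1.31 at day 1 and 57.2% ± 0.503 in NSC, a difference of 10.4 points (SD, n = 5 and 2; 1686 tiles; exact permutation p = 0.0952, the smallest possible). The gap between that class and the members was smaller by 6.98 points at day 1 than in NSC and by 5.91 points at week 1 than in NSC, with exact permutation p of 0.0952 and 0.133, again the smallest each design allows. Denser tiles of like methylation (20 to 59 listed cytosines, 70% or more) were close to the members: day 1 minus NSC was 3.45 points in the members and 3.38 points in the denser tiles, and week 1 minus NSC was 1.34 and 1.57 points.

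More members lay at both ends of the scale in operated tissue. To compare libraries of unequal depth, 20 of the reads summed over a tile's cytosines were drawn in each of 7088 members in the 12 deeper libraries. A molecule that covers several cytosines can be drawn more than once, so the number of molecules was not made equal. All 20 drawn reads were methylated in 28.8%, 26.0%, 25.2% and 21.5% of the tiles in day 1 replicates 1, 3, 4 and 5. That share was 17.9%, 22.4%, 18.0% and 21.1% in week 1 replicates 1 to 4, and 15.5% and 15.3% in NSC replicates 3 and 4. Each day 1 and week 1 library was above both control libraries, and day 1 replicate 5 lay within the range of week 1. At the other end, methylation below 50% was found in 1.52%, 1.14%, 1.38% and 1.02% of the tiles at day 1, in 1.30%, 1.44%, 1.81% and 1.41% at week 1, and in 0.762% and 0.776% in NSC replicates 3 and 4. Here too the groups did not overlap with the controls, but members were chosen as highly methylated in unoperated tissue. That choice limits the share below 50% in NSC replicates 3 and 4 as well, so the low end is a description only. In NSC replicates 1 and 2, which made the choice, this share was 0.198% and 0.310%.

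**Figure D3:**
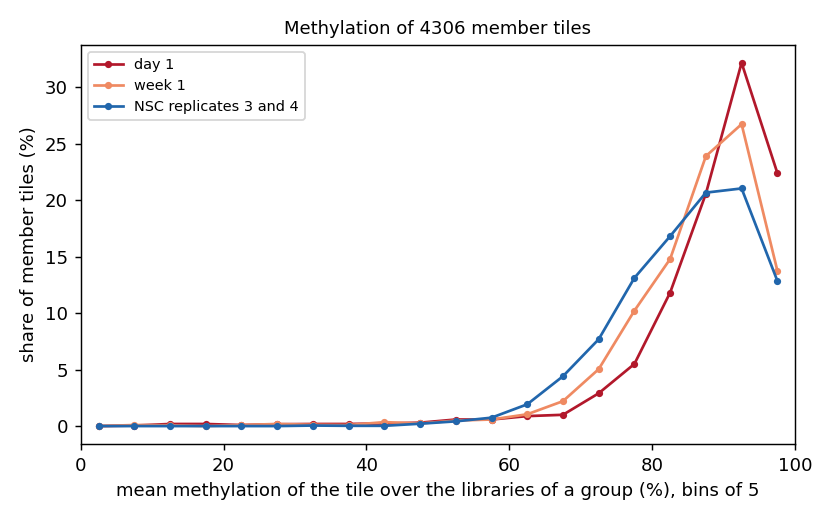
Share of 4306 member tiles (percent, vertical axis) by the group mean methylation of the tile in bins of 5 points (horizontal axis), for day 1, week 1 and NSC replicates 3 and 4. The day 1 curve is highest above 90% and the NSC curve is highest between 65% and 85%, with few tiles of any group below 50%.

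Tile by tile, 12235 of the 17504 members (69.9%) were higher at day 1 than in NSC, and the median member differed by 3.44 points. Of all 65034 tiles 67.9% were higher, with a median of 2.91 points. At week 1 58.1% of the members were higher than in NSC with a median of 1.38 points, and 59.9% of all tiles with a median of 1.36 points. Between week 1 and day 1 35.2% of the members were higher at week 1 with a median of -1.76 points, and 37.4% of all tiles with a median of -0.803 points. At day 1 436 members were higher than NSC by 25 points or more and 302 were lower by as much, and at week 1 349 were higher and 303 lower. By 50 points or more, 15 members were higher and 81 lower at day 1, and 12 were higher and 57 lower at week 1. A tile chosen at 70% or more can hardly gain 50 points, so the rule for members limits the number higher by that much. A library without reads in a tile dropped out of that tile's mean.

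**Figure D4:**
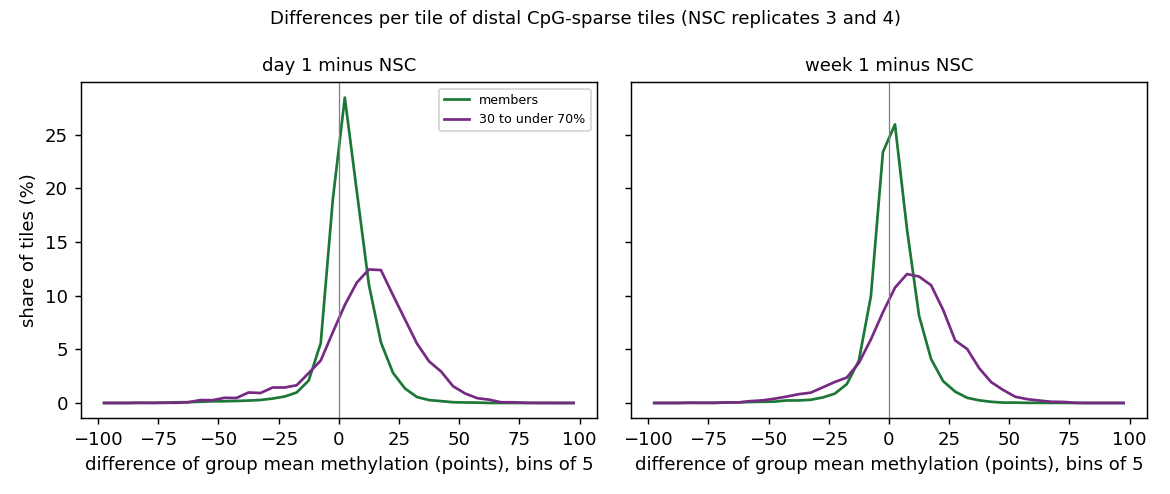
Share of tiles (percent, vertical axis) by difference of group mean methylation in bins of 5 points (horizontal axis), for day 1 minus NSC (left) and week 1 minus NSC (right), in the members and in distal CpG-sparse tiles at 30% to under 70%. The members peak just above 0 with medians of 3.44 and 1.38 points and have a thin tail below -50 points.

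Single tiles differed between libraries by more than the group means did. The median absolute difference per member between the NSC control libraries was 5.67 points. Pairs of day 1 replicate 1, 3, 4 or 5 and an NSC library differed by 6.08 to 6.80 points, and pairs of day 1 replicate 2 and an NSC library, over fewer tiles, by 7.74 and 7.73 points. Pairs of a week 1 and an NSC library differed by 6.19 to 6.96 points. Pairs of day 1 libraries without replicate 2 differed by 4.28 to 4.99 points and pairs of week 1 libraries by 5.14 to 6.26 points. Only tiles with at least 20 reads in both libraries were counted. The differences include the sampling of reads, which varies with depth and methylation level, and they were not corrected for it.

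Few members were called one by one, and by edgeR more were called lower than higher, although the mean was higher. A tile chosen at 70% or more has little room to gain, so the rule for members limits calls of gains. The balance of directions is therefore not read as a trait of the members. At day 1 this balance turned with other filters on cytosines, and at both times with limma on percent. A tile was called when the edgeR quasi-likelihood test on methylated and unmethylated counts gave an adjusted p below 0.05 over all 65034 tiles and the group means differed by at least 10 points. At day 1 178 members were called against NSC, or 1.02%, where 2.37% of all tiles were called. Of these 65 were higher (0.371% of the members; 1.63% of all tiles) and 113 were lower (0.646%; 0.741%). The members called lower had medians of 30.4% at day 1, 40.2% at week 1 and 87.3% in NSC replicates 3 and 4. Those called higher had medians of 95.9%, 91.5% and 65.6% in the same groups, and 79.0% in NSC replicates 1 and 2. The libraries that chose the tiles were thus higher than the controls at the members called higher. The distal sparse tiles at 30% to under 70% were called in 4.19% and those under 30% in 8.04%. Of the tiles at 30% to under 70%, 198 were called higher and 64 lower. Of the denser tiles at 70% or more, 94 were called higher and 129 lower. Of the 178 called members 104 had no reads in at least 1 library compared. The 113 tiles called lower lay apart from each other, none within 5 tiles of another.

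At week 1 79 members were called against NSC, or 0.451%, where 1.01% of all tiles were called. They comprised 22 higher (0.126%; 0.663% of all tiles) and 57 lower (0.326%; 0.349% of all tiles). The tiles called lower had medians of 31.2% at day 1, 31.9% at week 1 and 90.4% in NSC replicates 3 and 4. The tiles called higher had medians of 92.8%, 96.9% and 65.1% in these groups, and 78.0% in NSC replicates 1 and 2. The comparisons at day 1 and at week 1 share their controls.

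Between week 1 and day 1 no member was called, and 0.00% of all tiles were. At an unadjusted p below 0.05, 981 of the 17504 members (5.60%) passed edgeR, against 3565 of all 65034 tiles (5.48%). Limma on percent called 0 members, with 1501 below an unadjusted p of 0.05.

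How many members were called, and in which direction, depended on the filters, the libraries and the test. By edgeR at day 1, 46 members were called higher and 27 lower with cytosines present in all 13 files, where only 981 members were tested. With a minimum of 10 reads per cytosine, 72 were called higher and 48 lower of 4212 members tested. The shares of all tiles called in these settings are not given here. At week 1 edgeR called more lower than higher in both settings, with 9 higher and 15 lower, and 30 higher and 39 lower.

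Limma on percent called 670 members at day 1. Of these 560 were higher, or 3.20% of the members, where limma called 4.63% of all tiles higher, and 110 were lower, or 0.628% of the members, where it called 1.04% of all tiles lower. At week 1 limma called 420 members. Of these 320 were higher (1.83% of the members; 2.77% of all tiles) and 100 were lower (0.571% of the members; 0.770% of all tiles). Centring each library on its median over all tiles moved every tile of a library alike, and took the median tile difference to -6.48 points at day 1 and -5.03 points at week 1. Limma on centred values then called 62 higher (0.354% of the members; 1.33% of all tiles) and 284 lower (1.62%; 2.38%) at day 1. At week 1 it called 62 higher (0.354%; 1.18%) and 176 lower (1.01%; 1.33%). Because of that shift the centred counts are not read for direction.

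With only 1 control library the edgeR calls vanished: 0 at day 1 without NSC replicate 3, 1 without NSC replicate 4, and 0 at week 1 without either. Leaving out day 1 replicate 1 or 4 gave 109 and 90 calls at day 1, and leaving out week 1 replicate 1, 2 or 4 gave 45, 39 and 26 at week 1. With NSC replicates 1 and 2 as controls and replicates 3 and 4 to choose members, the counts were 189 and 95, of which 85 and 39 were tiles of the 178 and the 79. With day 1 replicates 1 and 2 left out, 102 members were called at day 1, 33 higher and 69 lower.

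The members were also counted by overlap of the libraries alone, beside all tiles tested, which include them. Of 4674 members read in every day 1 and control library, 20.9% had all day 1 libraries above the controls, against 20.7% of all such tiles, and 3.38% had all below, against 5.58%. Of 13341 members read in every week 1 and control library, 14.8% had week 1 wholly above NSC, against 18.4% of all such tiles, and 6.35% wholly below, against 6.47%. Week 1 lay wholly above day 1 in 0.297% of 4378 members, against 0.414% of all such tiles, and wholly below in 3.91%, against 2.41%.

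Tiles were named for a change only where the groups compared did not overlap. In the 8 members named as decreases at day 1, every day 1 library was thus below both controls by rule. The tile chr2:197151001-197152000 (mRatBN7.2, as all positions here) had 6.67%, 28.6%, 9.68%, 4.76% and 15.3% in the 5 day 1 libraries, 6.06%, 18.0%, 20% and 0.855% in the 4 week 1 libraries, and 68.9% and 89.3% in NSC replicates 3 and 4. Its 4 cytosines lay within 260 bp and had 15 to 190 reads per library. At day 1 all 4 cytosines were lower, and the difference was -66.1 points (edgeR adjusted p = 0.00572; log2 odds ratio -4.94 ± 0.967, SE). At week 1 the difference was -67.9 points (adjusted p = 0.00748), with 15 reads in the thinnest library.

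In chr1:256401001-256402000 the day 1 libraries had 19%, 0.0%, 4.11%, 16.2% and 26.0%, the week 1 libraries 22.7%, 7.69%, 33.3% and 34.8%, and NSC replicates 3 and 4 86.4% and 69.9%. All 9 operated libraries were below both controls. Day 1 minus NSC was -65.1 points (edgeR adjusted p = 0.00642; log2 odds ratio -4.62 ± 0.920, SE), and week 1 minus NSC was -53.5 points (adjusted p = 0.0497).

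The tile chr10:89497001-89498000 was named as a decrease at both times. It had 13.6%, 0.0%, 23.8%, 6.90% and 25.3% at day 1, 9.17%, 4.76%, 13.5% and 16.2% at week 1, and 74.1% and 72.7% in NSC replicates 3 and 4. The 4 cytosines, within 118 bp, were all lower at both times. The difference was -59.5 points at day 1 (adjusted p = 0.00707) and -62.5 points at week 1 (edgeR adjusted p = 0.00748; log2 odds ratio -4.48 ± 0.844, SE).

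In chr17:4079001-4080000, with 7 cytosines within 335 bp, the libraries had 21.6%, 10.3%, 17.0%, 9.09% and 32.8% at day 1, 9.68%, 4.29%, 16.1% and 6.06% at week 1, and 71.2% and 72.3% in NSC replicates 3 and 4. The operated groups overlapped with each other. The differences were -53.6 points at day 1 (edgeR adjusted p = 0.00995) and -62.7 points at week 1 (adjusted p = 0.00385), and all 7 cytosines were lower in both.

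The deepest of these tiles was chr5:49670001-49671000, with 30 to 785 reads per library over 3 cytosines. It had 11.7%, 0.0%, 19.8%, 17.4% and 34.8% at day 1, 17.4%, 8.29%, 14.8% and 8.75% at week 1, and 67.3% and 73.3% in NSC replicates 3 and 4. The value of 0.0% was from day 1 replicate 2 and rested on 30 reads summed over the 3 cytosines. These lay within 58 bp, so the same molecule can be counted more than once. The differences were -53.5 points at day 1 (adjusted p = 0.0051) and -57.9 points at week 1 (adjusted p = 0.00394).

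The other named decreases at day 1 were of like size. In chr5:159778001-159779000 methylation averaged 31.2% ± 11.5 at day 1 and 82.3% ± 3.0 in NSC (SD, n = 5 and 2). In chr8:108112001-108113000 it averaged 18.3% ± 9.86 at day 1 and 69.1% ± 4.35 in NSC. In chr12:33854001-33855000 it averaged 36.5% ± 19.4 at day 1 and 85.9% ± 1.68 in NSC. The edgeR adjusted p-values of the 8 tiles named as decreases at day 1 ran from 0.0051 to 0.0439. The last tile, where day 1 replicate 5 had 69.1% and the 4 others 20% to 38.2%, had the highest and lost its call without day 1 replicate 1, 2, 3 or 4, with adjusted p-values up to 0.108.

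Among the members that met the naming rule, the largest decrease at week 1 was in chr7:9689001-9690000. Its week 1 libraries had 11.5%, 31.7%, 11.5% and 0.0%, and NSC replicates 3 and 4 had 83.2% and 89.9%, a difference of -72.8 points (edgeR adjusted p = 0.0119; log2 odds ratio -5.59 ± 1.12, SE). The 4 day 1 libraries with reads had 13.4%, 32.1%, 3.95% and 43.1%, likewise below both controls. The 4 cytosines lay within 157 bp and 14 tiles from a dense tile.

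In chr14:34758001-34759000 the week 1 libraries had 24.6%, 16.9%, 41.7% and 8.93%, and NSC replicates 3 and 4 had 88.3% and 84.3% (difference -63.3 points, edgeR adjusted p = 0.0103). The day 1 libraries had 13.3%, 0.0%, 19.2%, 5.26% and 28.8%. The 0.0% came from 5 reads of replicate 2, too few for the tile to be named at day 1, where the difference was -73.0 points.

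In chr13:95340001-95341000 all 8 cytosines, within 247 bp, were lower at both times. The week 1 libraries had 11.9%, 18.2%, 35.3% and 21.6%, and NSC replicates 3 and 4 had 78.7% and 85.6% (difference -60.4 points, adjusted p = 0.00339). The day 1 libraries had 16.6%, 0.0%, 26.7%, 13.7% and 22.2%, the 0.0% from 18 reads (difference -66.3 points, adjusted p = 0.000917).

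Week 1 averaged 34.9% ± 15 and NSC 90.9% ± 4.50 in chr1:121045001-121046000 (SD, n = 4 and 2). In chr11:68698001-68699000 week 1 averaged 27.1% ± 11.8 and NSC 82.2% ± 6.82. The edgeR adjusted p was 0.0162 and 0.0228 in these tiles, and the second lost its call without week 1 replicate 2 (adjusted p = 0.0592). The 8 tiles named as decreases at week 1 had adjusted p-values from 0.00339 to 0.0228.

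The named increases were smaller than the named decreases, but members were chosen as highly methylated in unoperated tissue. That choice leaves little room for an increase, so this contrast in size is a description only. In chr10:67103001-67104000 the day 1 libraries had 98.0%, 95.8%, 81.8%, 97.6% and 87.5%, and NSC replicates 3 and 4 had 58.3% and 55.3%, a difference of 35.3 points (edgeR adjusted p = 0.0494; log2 odds ratio 3.30 ± 0.938, SE). NSC replicates 1 and 2 had 55.6% and 84.9% there, the second within the day 1 range. The call was lost without day 1 replicate 1, 2 or 4, with adjusted p-values up to 0.126.

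In chr10:54311001-54312000 day 1 averaged 94.1% ± 4.57 and NSC 61.7% ± 3.51 (SD, n = 5 and 2; adjusted p = 0.0321). In chr19:43525001-43526000 day 1 averaged 94.9% ± 6.34 and NSC 69.9% ± 2.47 (adjusted p = 0.0444). In chr13:92099001-92100000 day 1 averaged 98.0% ± 2.07 and NSC 80.5% ± 12.9 (edgeR adjusted p = 0.0198), the NSC values being 89.7% and 71.4%. NSC replicates 1 and 2 had 89.6% and 86.9% there. These 3 tiles, too, reached nearly full methylation at day 1. The first lost its call without day 1 replicate 1 or 3 (adjusted p = 0.0599 and 0.0545) and the second without replicate 1, 2 or 4 (up to 0.105). Without day 1 replicates 1 and 2 together, 6 of the 14 changes named at day 1 were lost: 5 of the increases, all but chr2:230966001-230967000, and the decrease in chr12:33854001-33855000.

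The smallest of the 6 named increases at day 1 were on chromosomes 2 and 1. In chr2:230966001-230967000, with 8 cytosines within 304 bp, the day 1 libraries had 95.4%, 95.7%, 93.2%, 96.3% and 94.5%, and NSC replicates 3 and 4 had 78.0% and 82.5%, a difference of 14.7 points (adjusted p = 0.0231). In chr1:95956001-95957000 the day 1 libraries had 97.7%, 98.4%, 94.1%, 94.8% and 94.2%, and NSC replicates 3 and 4 had 81.1% and 79.9%, a difference of 15.3 points (edgeR adjusted p = 0.0323). Of its 3 cytosines 2 were higher. The calls of both tiles were lost without day 1 replicate 4, with edgeR adjusted p of 0.0686 and 0.0538, and that of the second also without replicate 1 (0.078).

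The 6 increases named at week 1 had differences of 26.3 to 37.1 points and edgeR adjusted p-values from 0.0162 to 0.0477. The largest of the 6 was in chr19:28572001-28573000, with 85.9%, 89.3%, 88.0% and 98.3% at week 1, and 57.5% and 49.0% in NSC replicates 3 and 4 (difference 37.1 points, adjusted p = 0.0476). NSC replicates 1 and 2 had 70.9% and 78.5% there, above both control libraries and below week 1.

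Neighbouring tiles on chromosome 18 were named together. In chr18:55494001-55495000 week 1 averaged 95.9% ± 4.09 and NSC 64.9% ± 4.14, and in chr18:55495001-55496000 week 1 averaged 96.4% ± 3.31 and NSC 65.4% ± 7.75 (SD, n = 4 and 2). Day 1 averaged 89.5% ± 5.60 and 91.9% ± 7.16 in them, and neither was called at day 1 (edgeR adjusted p = 0.111 and 0.0668). NSC replicate 1 had 87.4% and 85.8% in them, within the day 1 range, and NSC replicate 2 had 69.6% and 61.5%. Week 1 minus NSC was 31.0 and 31.1 points in these tiles, at 4 and 7 cytosines. Their nearest cytosines, at positions 55494985 and 55495014, lay close together on either side of the tile edge. The tiles are therefore read as a single locus, and whether the same fragments covered both was not tested.

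Week 1 averaged 98.5% ± 1.87 and NSC 68.2% ± 17.9 in chr7:33444001-33445000 (SD, n = 4 and 2). In chr7:128050001-128051000 the means were 98.8% ± 1.5 at week 1 and 62.0% ± 13.7 in NSC, and in chr5:129200001-129201000 96.9% ± 2.49 at week 1 and 70.6% ± 11.5 in NSC. The control libraries differed widely in the first of these, at 55.6% and 80.9%. NSC replicates 1 and 2 had 81.4% and 78.8% in the first, 81.4% and 76.6% in the second, and 80.4% and 84.4% in the third. All but chr7:33444001-33445000 among the 6 lost the call when single week 1 libraries were left out, with adjusted p-values up to 0.131.

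With 1 control library left out, none of the 28 calls passed.

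**Figure D5:**
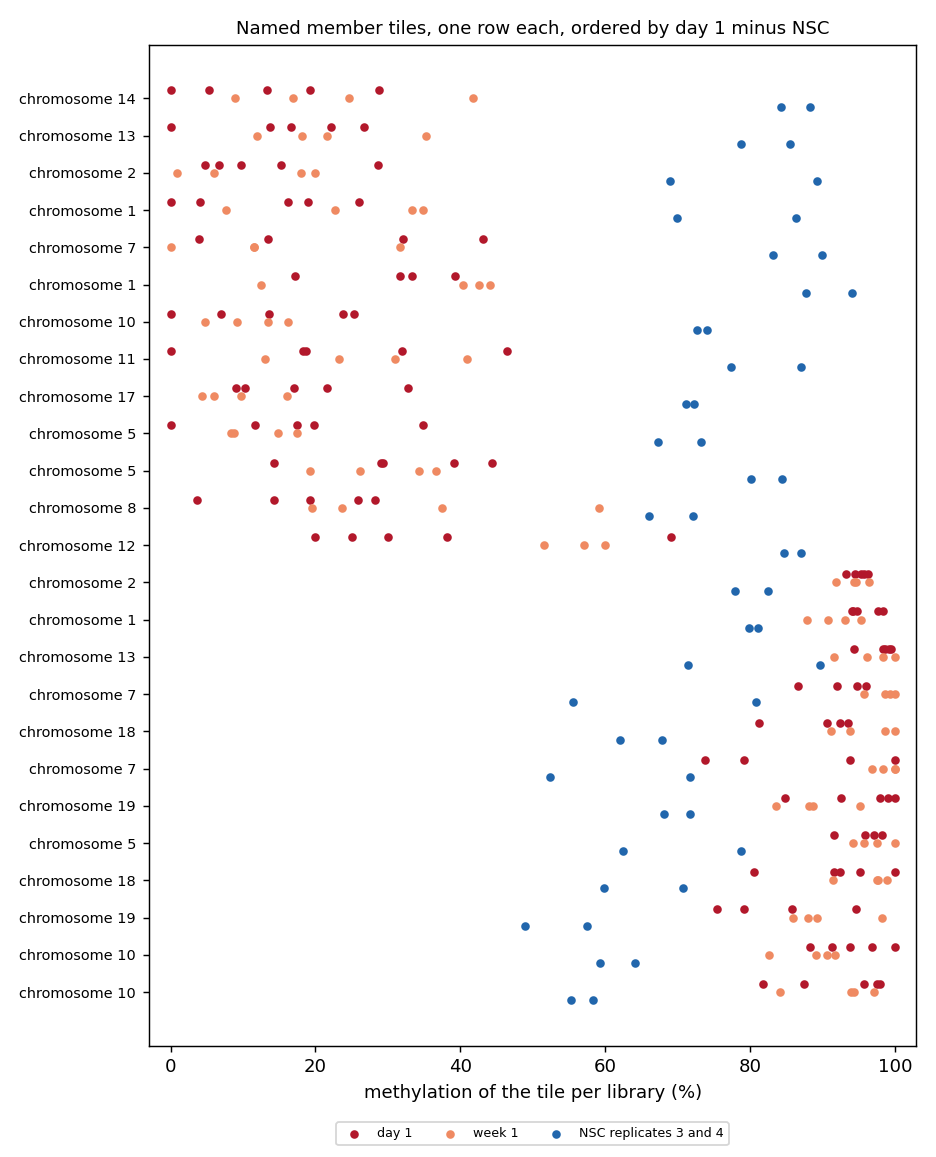
Methylation (percent, horizontal axis) of the 25 members named for a called change, 1 row per tile, in each day 1, week 1 and control library with reads, ordered by day 1 minus NSC. In the upper 13 rows all day 1 and week 1 libraries lie below both controls, and in the lower 12 rows they all lie above both. The naming rule required this of the group for which a tile was named.

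None of the 4 deepest members, those with the most reads in their shallowest library, was called in any comparison. In chr19:21922001-21923000, with 623 to 2351 reads per library over 13 cytosines, the libraries had 85.3%, 80.3%, 77.5%, 87.3% and 79.3% at day 1, 81.8%, 80.2%, 77.5% and 86.6% at week 1, and 84.8% and 79.0% in NSC replicates 3 and 4. The groups overlapped throughout, and the differences were 0.0392 points at day 1 and -0.377 points at week 1. In chr19:13769001-13770000 methylation averaged 78.3% ± 3.35 at day 1, 77.2% ± 3.72 at week 1 and 73.9% ± 6.32 in NSC (SD, n = 5, 4 and 2). In chr16:20214001-20215000 it averaged 86.8% ± 4.10, 81.5% ± 4.59 and 81.0% ± 2.23, and in chr1:55034001-55035000 86.7% ± 0.338, 83.3% ± 3.55 and 85.1% ± 5.45, in the same groups. Day 1 minus NSC was 4.43, 5.76 and 1.58 points in these 3 tiles, and the edgeR adjusted p-values of all 4 were 0.512 or more in every comparison. Library values in these deep tiles still ran over several points within a group, for example 77.5% to 87.3% at day 1 in the first.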

How the data were processed

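MspI-digested, bisulfite-converted DNA was sequenced with an Accel-NGS Methyl-seq library kit, and fragments above 300 bp had been removed, per the labels' protocols. The submitters' processing notes name Trim Galore, FastQC, Bismark 0.23.0, methylKit 1.14.2 and the assembly mRatBN7.2, with no roles. The deposited files hold, per cytosine and strand, a count of methylated reads, a count of total reads and a percent, truncated to a whole number. The deposited counts were used without normalization, and percent was recomputed from them. Cytosines with under 5 reads are not listed. Of 14 samples 13 were analysed; 1 week 1 sample was not analysed here. Replicates were numbered in accession order, and the labels give no batch.

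Cytosines present in 3 or more libraries of each group were summed per tile, and the 65034 tiles of chromosomes 1 to 20, X and Y with at least 3 were tested in one fit of 11 libraries with edgeR 4.0.16 under R 4.3.3. The model had a term for each library and, for methylated reads, a term for each group. Quasi-likelihood F tests were adjusted by Benjamini-Hochberg. The SE of a log2 odds ratio is its size divided by the square root of F, an approximation. Means per library were compared by exact permutation. Named tiles are called members with at least 20 reads, summed over cytosines, in every library compared and no overlap. Of these the 8 largest decreases and 6 largest increases against NSC at each time were taken, plus the 4 deepest members. The test was first checked on simulated data. Intervals are not given, and precision was taken from the spread between libraries. Alternatives included limma 3.58.1 on percent, other filters and leaving out libraries. Other software was scipy 1.17.1, numpy 2.4.6 and pandas 2.3.3 with Python 3.11.15.

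The members, the rule for named tiles and the gene lists planned were chosen with earlier results of these data known. The planned lists of cell type and methylation genes were not run, since annotation of this assembly was not used here, and no coordinates were converted.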

Additional observations from a re-analysis of the deposited data

Results flagged for a closer look

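Among 72 groups of values examined, 5 held a library that stood far from the others of its group, where chance alone gives about 1 in 20. Day 1 replicate 2 had reads in 28.4% of the members, and the other day 1 libraries had reads in 93.5% to 98.9%. In the tile chr1:55034001-55035000 the same library had 86.1% methylation, and the other day 1 libraries had 86.7% to 86.9%. In chr1:121045001-121046000 week 1 replicate 2 had 12.5%, and the other week 1 libraries had 40.4% to 44.1%. In chr13:92099001-92100000 day 1 replicate 3 had 94.4%, and the other day 1 libraries had 98.4% to 99.5%.

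Mitochondrial cytosines lie outside the member tiles, and their methylation was used only to describe the libraries. It was 1.91% in day 1 replicate 2, far from the 0.196% to 0.673% of the other day 1 libraries. It exceeded the range of the 4 NSC libraries (0.173% to 0.259%) in that library, in day 1 replicate 1 at 0.673% and in week 1 replicate 4 at 0.319%. Its part in the results was not tested. Without day 1 replicates 1 and 2 the members were higher at day 1 than in NSC by 3.75 points.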

How the results depend on the processing

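The differences of the member means kept their direction under all alternatives run. Day 1 minus NSC ran from 2.44 to 3.94 points and was 3.17 points with all 4 NSC libraries as controls, which include those that chose the members and so give no valid test. Leaving out single libraries gave 3.24 to 3.94 points for day 1 minus NSC, 1.09 to 1.89 for week 1 minus NSC and -2.38 to -1.55 for week 1 minus day 1. The exact permutation p of week 1 minus day 1 was 0.0159 in the main setting and 0.119 after adjustment over the 15 means. The unadjusted p rose to 0.143 with reads pooled over members (-1.63 points, the cause was not tested). It was 0.0571 without day 1 replicates 1 and 2 (-2.10 points, fewer libraries).

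Counts of called members moved most. Those at day 1 (178) and week 1 (79) became 73 and 24 with cytosines present in all 13 files, 87 and 30 after thinning to 5 reads per cytosine, 61 and 31 with at least 5 cytosines per tile, 107 and 47 at 80% or more, and 24 and 10 with 1 to 9 listed cytosines. They became 738 (470 higher) and 354 (147 higher) with all 4 NSC libraries, 670 and 420 by limma, and 346 and 238 by limma on centred percent. Without day 1 replicates 1 and 2 the day 1 count was 102. With a minimum of 10 reads per cytosine it was 120, of which 72 were higher. Fewer tiles or libraries entered several of these, and for the rest the cause was not tested. Of the 17504 members, 981 were tested with cytosines present in all 13 files and 4212 with a minimum of 10 reads per cytosine. With at least 5 cytosines per tile 4655 were tested. A smaller count in these settings is therefore not a smaller share of the members tested. Leaving out single libraries gave 0 to 221 calls at day 1 and 0 to 83 at week 1. Week 1 against day 1 gave 0 in every setting. Of 28 named changes, 14 were lost after thinning to 5 reads and 8 by limma on centred percent. With the control pairs exchanged 9 were lost, all of them increases.

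No paired analysis was possible because replicate numbers follow accession order and pair no samples. Day 1 replicate 2 read 28.4% of the members, and without it 177 were called at day 1. Exchanging the control pairs, other thresholds for the difference and members chosen over every listed cytosine were also run. The last of these, the setting without day 1 replicates 1 and 2, and thinning to 20 reads per tile were chosen after seeing the data.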
